A study of Homo sapiens with 6 samples.

Results

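CTGF, CYR61, NOV, WISP1, ANKRD1, CRIM1, F3, NT5E and NUAK2 are 9 genes described as transcriptional targets of YAP, and they are 9 of the 58735 genes in the deposited table. They were found by symbol, and the set was chosen by a reading of their values in this same comparison of shACAT2 with shNC cells. Their differences are therefore described here with no p-value for any single gene. Where those past a threshold are counted, the share of all genes is given and the counts serve as description only. The cells are HGC-27, an established line from an undifferentiated human gastric carcinoma. ACAT2 encodes the cytosolic acetyl-CoA acetyltransferase, and the study asked how its depletion changes gene expression in these cells. One group of 3 libraries (shACAT2) came from cells given the vector pSIH-H1-Puro-shACAT2 and the other 3 (shNC) from cells given pSIH-H1-Puro-shNC, both for 24 h and then under puromycin for 7 days. The labels call the line wild type, do not name the ACAT2 hairpin, and do not say whether the 3 libraries of a group came from separate cultures, so p-values measure the spread between libraries only, which may be technical.

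YAP and its paralog TAZ are coactivators that the kinases of the Hippo pathway keep out of the nucleus. They bind no DNA themselves and reach promoters and enhancers through the TEAD factors, whose recognition motif is GGAATG. CTGF and CYR61 are the targets most often used as a readout of this pathway. They belong with NOV and WISP1 to the CCN family of secreted matricellular proteins, which bind integrins and heparan sulphate.

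The promoters of CTGF, ANKRD1, NUAK2 and F3 are shown to let their TEAD motifs be compared. FPKM was higher in all 3 shACAT2 libraries for CTGF, ANKRD1 and, by only 0.0118 FPKM, NUAK2, and overlapped between the groups for F3. A link between motifs and differences was not tested. Windows of 300 bases, 250 before and 50 after the gene start, were taken from RefSeq on GRCh38.p14, and 5 of the 9 genes had an entry. CYR61, NOV, WISP1 and CRIM1 had none. The stretches below are the part of each window that precedes both the RefSeq start and the gene start in the deposited table. All 4 genes lie on the minus strand, and the sequences read 5′ to 3′ on it. CTGF is shown from chr6:131951374-131951622, ANKRD1 from chr10:90921277-90921337, NUAK2 from chr1:205321792-205321995 and F3 from chr1:94541801-94542009. Capitals mark GGAATG or its reverse complement CATTCC.
CTGF: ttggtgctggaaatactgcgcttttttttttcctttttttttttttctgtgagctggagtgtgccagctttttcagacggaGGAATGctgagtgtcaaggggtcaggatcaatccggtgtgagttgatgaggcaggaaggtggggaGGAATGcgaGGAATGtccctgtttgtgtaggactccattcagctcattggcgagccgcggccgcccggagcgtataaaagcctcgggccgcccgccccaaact
ANKRD1: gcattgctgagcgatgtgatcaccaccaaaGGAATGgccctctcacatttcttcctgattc
NUAK2: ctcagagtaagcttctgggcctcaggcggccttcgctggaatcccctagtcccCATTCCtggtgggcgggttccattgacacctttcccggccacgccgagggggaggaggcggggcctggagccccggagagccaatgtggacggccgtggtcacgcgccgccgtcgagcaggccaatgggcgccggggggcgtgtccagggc
F3: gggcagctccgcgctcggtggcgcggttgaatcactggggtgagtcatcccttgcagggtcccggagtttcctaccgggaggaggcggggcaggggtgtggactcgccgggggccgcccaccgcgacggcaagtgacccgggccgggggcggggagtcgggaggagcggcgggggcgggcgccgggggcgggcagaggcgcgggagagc

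In the whole windows, the CTGF promoter held 3 TEAD motifs, all in the GGAATG orientation, whose first bases lay 169, 104 and 95 bases before the RefSeq start. ANKRD1 held 2, at 220 and 128 bases before it, and NUAK2 held 2 as well, 1 in each orientation, at 197 and 18 bases before it. The match of each nearer to the start lies inside the gene as the deposited table draws it. F3 and NT5E held none. Among 35116 windows of the same length, 14.0% held at least 1 such match, 1.37% at least 2 and 0.128% at least 3. A match to the AP-1 motif TGANTCA, which reads the same on both strands, was found once in ANKRD1 and at 2 places in F3, against 7.71% of all windows with at least 1 and 0.515% with at least 2. The AP-1 matches overlapped no TEAD match. No window of the 5 genes held a CArG box, the motif of SRF, which 1.29% of all windows held. These matches describe the letters of the windows, and binding was not measured.

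**Figure D1:**
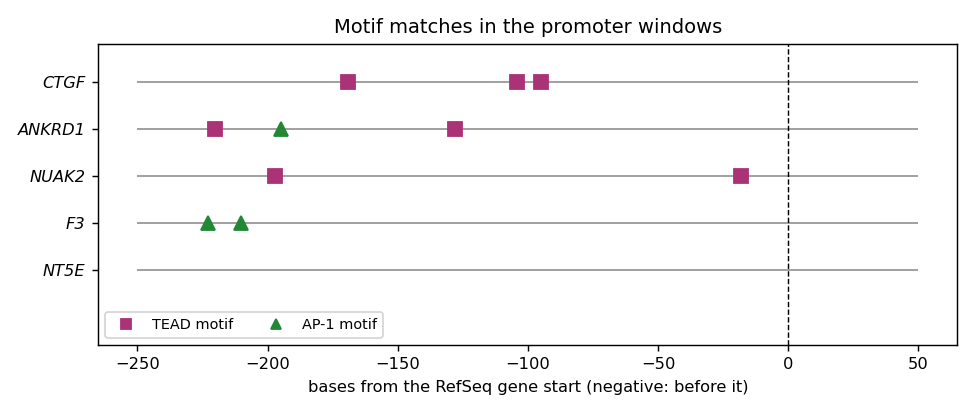
Positions of TEAD (squares) and AP-1 (triangles) motif matches in the 300-base promoter windows of 5 genes, as bases from the RefSeq gene start on the x axis. CTGF has 3 TEAD matches, ANKRD1 and NUAK2 have 2 each, and F3 and NT5E have none.

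Total RNA was sequenced, and the authors deposited FPKM, fragments per kilobase of exon scaled for sequencing depth. The fragments behind each value could be read back, and 14086416 to 16067486 of them lay on genes per library. ACAT2 had 14.2, 11.7 and 12.7 FPKM in the shNC and 6.19, 5.46 and 6.05 FPKM in the shACAT2 libraries (log2 fold change −1.01, SE 0.10, limma adjusted p = 0.00594). In shACAT2-3, 7477 genes had a fragment that no other library showed, against 416 to 657 in each of the others. The libraries shNC-2 and shNC-3 stood much closer together than other replicates, with a chi-square of 1.73 per gene, where every other replicate pair had 12.1 to 46.0. The line, labelled HGC-27, showed little of an epithelial or gastric profile. Whether it is the labelled line was not tested. Of 7 epithelial markers, KRT8, KRT18, KRT19, EPCAM and CLDN4 were under 1 FPKM in every library, and CDH1 had 0.222, 0.12 and 0.141 FPKM in the shNC and 0.608, 0.828 and 1.15 FPKM in the shACAT2 libraries, under the minimum for a test and without overlap. The remaining marker, MUC1, had 1.99 to 3.78 FPKM and was higher in shACAT2 cells (limma adjusted p = 0.0245). All 6 gastric markers were under 1 FPKM, with 3 of them at 0 throughout. The 8 fibroblast-type markers summed to 310 to 346 FPKM in shNC and 448 to 543 FPKM in shACAT2 cells, most of it from COL3A1 and COL1A1. Of these 8, COL1A1, LUM and DCN were higher in shACAT2 cells at a limma adjusted p of 0.0136, 0.0423 and 0.0246. PDGFRA was lower in every shACAT2 library (log2 fold change −0.43, limma adjusted p = 0.0701, or 0.0431 with the replicate block), and THY1 and PDGFRB overlapped between the groups. The replicate block, here and below, pairs libraries of the same number. The labels state no such pairing. It was read from these same data, where exchanging the libraries numbered 2 and 3 correlated about as well. Endothelial markers (4 genes) summed to 0.00558 to 0.0237 FPKM in shNC and 0.0116 to 0.444 FPKM in shACAT2 cells. The 0.444 FPKM came from shACAT2-3 alone, where each of the 4 had its highest value. Leukocyte markers (4 genes) summed to 0.979 to 1.28 FPKM in shNC and 0.918 to 1.28 FPKM in shACAT2 cells. The part of these differences in the results below was not tested, and in bulk RNA fewer cells of a type and less RNA per cell cannot be told apart.

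CYR61, CTGF and NOV were the CCN genes with signal in these cells, and all 3 had higher FPKM in every shACAT2 library than in any shNC library. CYR61 (ENSG00000142871, chromosome 1, 85580761 to 85583962 on GRCh38) encodes CCN1, an integrin-binding protein of the matrix that cells make soon after growth factor stimulation or stretch. It had 13.9, 12.1 and 13.2 FPKM in the shNC and 41.5, 32.0 and 27.1 FPKM in the shACAT2 libraries, each in the order of the replicate numbers. The 3 shACAT2 values were spread more widely than the shNC values, and the lowest of them still lay 13.2 FPKM above the highest shNC value. The mean went from 13.1 ± 0.872 to 33.5 ± 7.31 FPKM (SD, n = 3 each), a ratio of 2.57, from 483 to 1545 fragments per library. The log2 fold change, here and for all genes below on log2(FPKM + 1), was 1.28 (SE 0.16). This scale understates the change of genes with low FPKM.

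CTGF (ENSG00000118523, chromosome 6, 131948176 to 131951373) encodes CCN2, a matrix protein known for its part in fibrosis and wound repair. Its FPKM was 3.13, 1.5 and 2.08 in the shNC and 8.79, 6.66 and 7.21 in the shACAT2 libraries. In both groups the first library was the highest and the second the lowest, and the groups stood 3.53 FPKM apart. The mean went from 2.24 ± 0.824 to 7.55 ± 1.10 FPKM (SD, n = 3 each), a ratio of 3.37, from 57 to 112 fragments per shNC and 253 to 312 per shACAT2 library. The log2 fold change was 1.42 (SE 0.19). With limma-voom on the recovered fragments, a scale without the added 1 FPKM, it was 1.75. The exons of CTGF share 195 bases with the antisense gene AL133346.1, and a strand setting for the counting is not given in the sources used here.

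NOV (ENSG00000136999, on chromosome 8) encodes CCN3, a CCN protein often described as a counterpart of CCN2 with restraining effects on growth. Its FPKM was 7.24, 6.12 and 7.03 in the shNC and 14.3, 14.0 and 14.6 in the shACAT2 libraries. The shACAT2 values were nearly level, with a coefficient of variation of 1.97%, against 14.6% for CTGF and 21.8% for CYR61 in the same libraries. The mean went from 6.79 ± 0.597 to 14.3 ± 0.282 FPKM (SD, n = 3 each), a ratio of 2.10. The log2 fold change was 0.98 (SE 0.095). WISP1 (ENSG00000104415, on chromosome 8), which encodes CCN4, was at 0 in all 3 shNC libraries and in shACAT2-1 and shACAT2-2, and had 2 fragments in shACAT2-3, the library with signal in many otherwise silent genes. A count of 0 allows up to 3 fragments, or 0.0335 to 0.0385 FPKM for a gene of this length, an allowance that covers counting error only, and both groups lay under it. The remaining CCN genes, WISP2 and WISP3, had at most 0.122 FPKM in any library, so 3 of the 6 family members carried the measured expression.

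**Figure D2:**
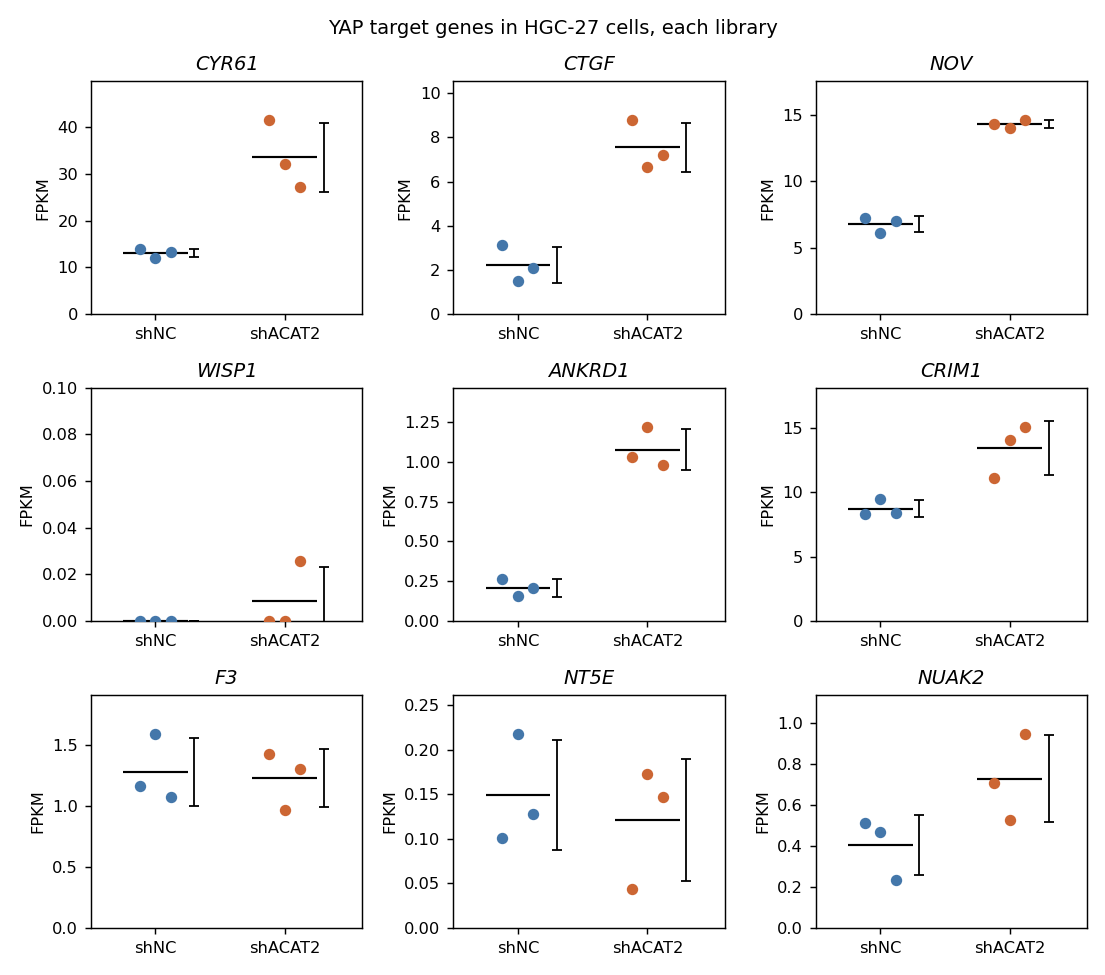
FPKM of the 9 genes in each of the 3 shNC (blue) and 3 shACAT2 (orange) libraries, each gene on its own axis from 0, with the mean as a line and the SD as a bar beside it. CYR61, CTGF, NOV, ANKRD1, CRIM1 and NUAK2 do not overlap between groups, by only 0.0118 FPKM for NUAK2, while F3 and NT5E overlap and WISP1 has signal in 1 library.

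ANKRD1 (ENSG00000148677, chromosome 10, 90912096 to 90921276) encodes a cardiac ankyrin repeat protein that acts in the nucleus and at the sarcomere, and is a standard YAP target outside muscle. It had 0.264, 0.156 and 0.205 FPKM in the shNC and 1.03, 1.22 and 0.977 FPKM in the shACAT2 libraries. These values rest on 5 to 8 fragments in each shNC and 29 to 40 in each shACAT2 library, and the groups were clearly apart. The mean went from 0.208 ± 0.0542 to 1.07 ± 0.125 FPKM (SD, n = 3 each), a ratio of 5.16, the highest of the 8 genes with a ratio. Because both means are near or under the added 1 FPKM, the log2 fold change was only 0.78 (SE 0.15), and it was 1.94 with 0.1 FPKM added and 2.26 with limma-voom. ANKRD1 met the minimum of a mean of 1 FPKM in either group through its shACAT2 mean alone. Its paralogs ANKRD2 and ANKRD23 stayed under that minimum in both groups.

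CRIM1 (ENSG00000150938, chromosome 2, 36355926 to 36551135) encodes a transmembrane protein with cysteine-rich repeats that binds BMPs. Its FPKM was 8.32, 9.47 and 8.37 in the shNC and 11.1, 14.1 and 15.1 in the shACAT2 libraries. The groups did not overlap, although shACAT2-1 lay only 1.67 FPKM above the highest shNC library. The mean went from 8.72 ± 0.647 to 13.5 ± 2.08 FPKM (SD, n = 3 each), a ratio of 1.54. The log2 fold change was 0.56 (SE 0.13). Its order among the shACAT2 libraries was the reverse of that of CYR61. In shACAT2-1, CYR61 and CTGF were at their highest and CRIM1 at its lowest. The libraries also differed by exon length. CTGF (2339 exon bases), CYR61 (2455), NOV (2673), ANKRD1 (1979) and F3 (2875) belong to the bin of 1559 to 3372 bases. In shACAT2-1, genes of this bin stood a median 0.19 log2 above their shACAT2 mean, and genes of more than 7543 bases stood 0.11 below it. CRIM1, with 7122 exon bases, belongs to the bin of 5125 to 7543 bases, which stood 0.03 above it in shACAT2-1. Of the shACAT2 libraries, F3 was also highest in shACAT2-1, while NOV and ANKRD1 were not. The part of exon length in the order of the libraries was not tested. Between the groups, the median log2 fold change in 5 equal bins of exon length ran from −0.063 to 0.086. CRIM1 shares 177 exon bases with the antisense gene AC007378.1.

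F3 (ENSG00000117525, chromosome 1, 94529225 to 94541800) encodes tissue factor, which starts blood coagulation at the cell surface. It had 1.16, 1.59 and 1.07 FPKM in the shNC and 1.42, 0.963 and 1.30 FPKM in the shACAT2 libraries, so the groups overlapped fully. The means were 1.27 ± 0.277 and 1.23 ± 0.237 FPKM (SD, n = 3 each), with a log2 fold change of −0.028 (SE 0.15) whose sign was positive without shNC-2 or without shACAT2-2. NT5E (ENSG00000135318, chromosome 6, 85449584 to 85495791) encodes CD73, the enzyme that makes extracellular adenosine from AMP. It had 0.101, 0.218 and 0.128 FPKM in the shNC and 0.0436, 0.173 and 0.147 FPKM in the shACAT2 libraries, from 3 to 16 fragments each, and the groups overlapped. NUAK2 (ENSG00000163545, chromosome 1, 205302059 to 205321791), a kinase of the AMPK-related family that acts on myosin phosphatase, had 0.513, 0.466 and 0.236 FPKM in the shNC and 0.708, 0.525 and 0.949 FPKM in the shACAT2 libraries. The lowest shACAT2 value lay just 0.0118 FPKM above the highest shNC value, and 14 to 49 fragments stood behind each. The means of NUAK2 were 0.405 ± 0.148 and 0.727 ± 0.213 FPKM (SD, n = 3 each).

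Per length, the order of the levels in shNC cells was CYR61, CRIM1, NOV, CTGF, F3, NUAK2, ANKRD1, NT5E and WISP1. The libraries of neighbouring genes overlapped between CTGF and F3, between NUAK2 and ANKRD1 and between ANKRD1 and NT5E, and were apart for the other pairs. In shACAT2 cells CYR61 stayed first, NOV and CRIM1 followed with overlapping values, and ANKRD1 overlapped with F3. Among the 13832 genes tested, the mean level of CTGF stood at percentile 25.1 in shNC and 59.2 in shACAT2 cells. For CYR61 these percentiles were 74.7 and 90.4, for NOV 56.7 and 75.7, for CRIM1 64.1 and 74.2, and for F3 10.5 and 10.6. CTGF moved furthest up this order and F3 kept its place.

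Of the 9 genes, 6 met the minimum and entered the fit over 13832 genes, and 4 of these, CTGF, CYR61, NOV and ANKRD1, had a limma adjusted p below 0.05 with higher values in shACAT2 cells, where 3.30% of all genes did. None of the 6 was past the threshold in the lower direction, against 1.81% of all genes. With a log2 fold change above 1 and an unadjusted p below 0.05, 2 of the 6 passed, CTGF and CYR61, against 0.983% of all genes. Among all 9, 6 had every shACAT2 library above every shNC library, and among the 6 tested 5 did, against 16.2% of all genes tested. ANKRD1 is in these counts through its shACAT2 mean alone. The median log2 fold change of the 6 was 0.88, and that of all genes tested 0.016. These counts follow from how the genes were chosen and support nothing further.

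The count of 4 was 1 when the close libraries shNC-2 and shNC-3 were averaged to 1 sample, where 0.455% of all genes were called higher. It was also 1 without shNC-3 (0.353%) or without shACAT2-2 (0.681%), and the gene left was NOV each time. The count was 2 (CTGF and NOV) without shNC-1 (0.718%) or without shNC-2 (0.548%). It was 3, with CYR61 beside them, without shACAT2-3, the library with signal in silent genes (3.32%). With the replicate number as a block it was 4 again (7.67%), with CRIM1 past the threshold in place of ANKRD1. When each library was dropped in turn, log2 fold changes ran from 1.25 to 1.61 for CTGF, 1.12 to 1.41 for CYR61, 0.91 to 1.02 for NOV, 0.73 to 0.81 for ANKRD1 and 0.48 to 0.68 for CRIM1.

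**Figure D3:**
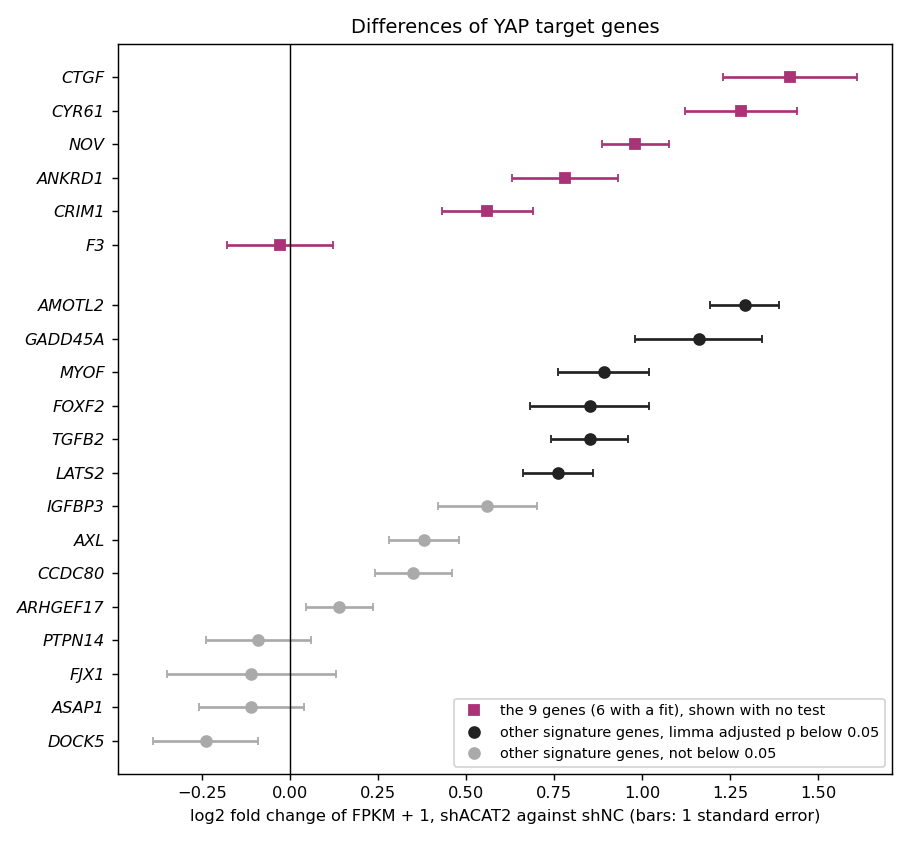
Log2 fold change on log2(FPKM + 1) between 3 shACAT2 and 3 shNC libraries, with bars of 1 standard error, for 6 of the 9 genes (squares, with no test result marked) and 14 further signature genes (circles, dark where the limma adjusted p is below 0.05). CTGF, at 1.42, and CYR61, at 1.28, lie beside AMOTL2, at 1.29, while F3 lies at −0.028.

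The closest profiles to those of CTGF and CYR61 were sought among 13826 other genes, as the smallest root mean square difference of log2(FPKM + 1), centred on the gene's mean, over the 6 libraries. For CTGF these were TIMP3, an inhibitor of matrix metalloproteinases (0.121), SLC2A3, a glucose transporter (0.135), and EZR, a linker of membrane and actin (0.139). For CYR61 they were KLHL30 (0.0391), BMP4, a ligand of the TGF-beta superfamily (0.0756), and ADM, the peptide adrenomedullin (0.0767). CTGF and CYR61 lay 0.209 apart. From CTGF, 11 genes outside the 9 were closer than CYR61, and from CYR61, 70 were closer than CTGF. NOV stood 0.291 from CTGF and 0.236 from CYR61, ANKRD1 0.391 and 0.305, CRIM1 0.548 and 0.475, and F3 0.782 and 0.688. The measure includes the difference between the groups, so it lies close to the fold change in what it ranks.

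**Figure D4:**
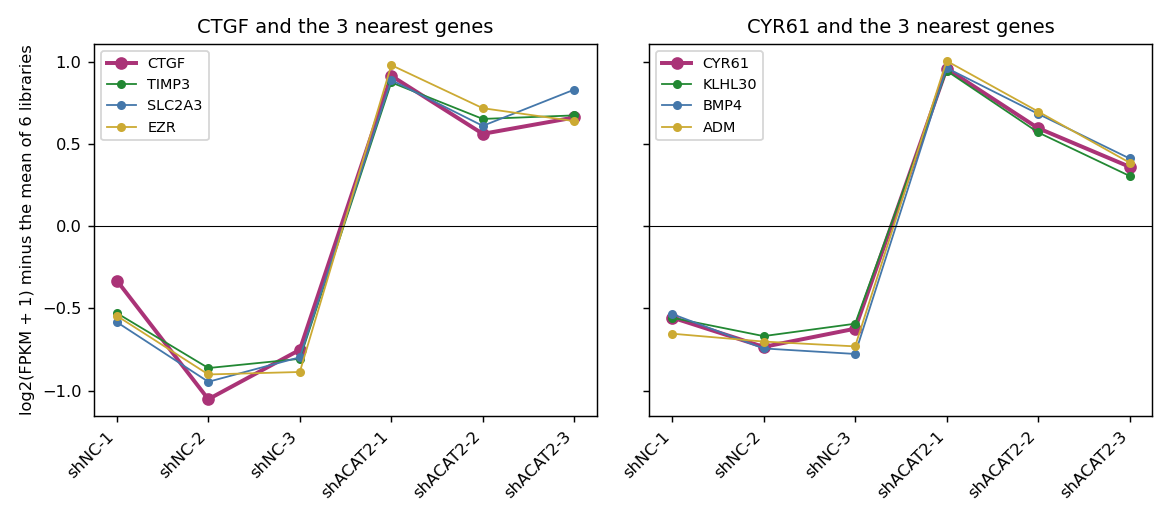
Log2(FPKM + 1) minus the mean of the 6 libraries, for CTGF (left) and CYR61 (right) with the 3 genes of the smallest root mean square difference. Each curve lies below 0 in the 3 shNC and above 0 in the 3 shACAT2 libraries, and CYR61 and its neighbours are highest in shACAT2-1 and lowest of the shACAT2 libraries in shACAT2-3.

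Beyond these genes, 6 of 14 tested genes of a YAP/TAZ target signature rose past the threshold in shACAT2 cells, and none fell. That is 42.9%, against 3.30% of all genes, and the median log2 fold change was 0.47 against 0.016 for all genes. RBMS3, the 15th, was under the minimum, and MYOF met it through its shACAT2 mean alone (0.773 FPKM with shNC, 2.29 FPKM with shACAT2). This signature and the lists below were also chosen with earlier results of these data known, so their counts support nothing further. AMOTL2, an angiomotin that binds YAP, averaged 6.11 ± 0.121 FPKM with shNC and 16.4 ± 1.57 FPKM with shACAT2 (SD, n = 3 each) and rose by 1.29 on the log2 scale (SE 0.098, limma adjusted p = 0.00347). LATS2, the kinase that phosphorylates YAP, rose by 0.76 (limma adjusted p = 0.0119), and the growth factor TGFB2 by 0.85 (limma adjusted p = 0.0106). GADD45A, a stress-induced growth arrest gene, rose by 1.16 (limma adjusted p = 0.0208), MYOF, a membrane repair protein, by 0.89 (limma adjusted p = 0.0149), and the forkhead factor FOXF2 by 0.85 (limma adjusted p = 0.0354). Of the others, IGFBP3 at 0.56 (limma adjusted p = 0.0640) and the receptor kinase AXL at 0.38 (limma adjusted p = 0.0772) had the largest differences, and with the replicate block the adjusted p of IGFBP3 was 0.0251. Their sizes stand beside those of the 9 genes in the plot of differences. AMOTL2 was the only one past the threshold after shNC-2 and shNC-3 were averaged, and also when any 1 of the 3 shNC libraries or shACAT2-2 was left out.

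Of 43 further genes described as YAP targets 30 were tested, and 9 rose (30.0%, against 3.30% of all genes) and none fell. The median log2 fold change of the 30 was 0.37. Of the 9, DAB2 and NDRG1 met the minimum through their shACAT2 means alone. These went from 0.806 and 0.412 FPKM with shNC to 2.27 and 1.86 FPKM with shACAT2. DKK1, a secreted Wnt antagonist, averaged 7.60 ± 0.371 FPKM with shNC and 32.0 ± 3.72 FPKM with shACAT2 (SD, n = 3 each) and rose by 1.93 on the log2 scale (SE 0.11, limma adjusted p = 0.00205). The secreted glycoprotein FSTL1 rose by 1.11 (limma adjusted p = 0.00347), AJUBA, a LIM protein that binds LATS kinases, by 1.03 (limma adjusted p = 0.0106) and the stress-responsive NDRG1 by 1.02 (limma adjusted p = 0.0118). SGK1, DAB2, PMP22 and GADD45B rose by 0.70 to 1.00, at a limma adjusted p from 0.0139 to 0.0496. VIM at 0.62 (limma adjusted p = 0.0634) and ITGB5 at 0.56 (limma adjusted p = 0.0777) did not pass, although they did with the replicate block, at 0.0265 and 0.0253. In those same 5 fits DKK1 and FSTL1 remained past the threshold, with AJUBA beside them without shNC-1. With the replicate block 15 of the 30 rose and PHGDH fell. That fit called 1727 of all 13832 genes, 1061 of them (7.67% of all genes) higher and the rest lower.

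The 12 cell cycle genes described as YAP targets were all tested, and none passed an adjusted p of 0.05 in limma. At an unadjusted p below 0.05, 4 were higher and 1 was lower, but the share of all genes at that cut was not counted. Limma-voom, which called 1165 of all 13832 genes in either direction, called DUT alone, as lower. The replicate block called 3 higher and 1 lower. Of all 13832 genes it called 1727, of which 1061 (7.67% of all genes) were higher and the rest lower. DUT had a log2 fold change of −0.52 (limma adjusted p = 0.0772) and SHCBP1 one of 0.45 (limma adjusted p = 0.0636), with 0.0275 and 0.0419 under the replicate block. Whether these genes differ from the other lists was not tested.

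**Figure D5:**
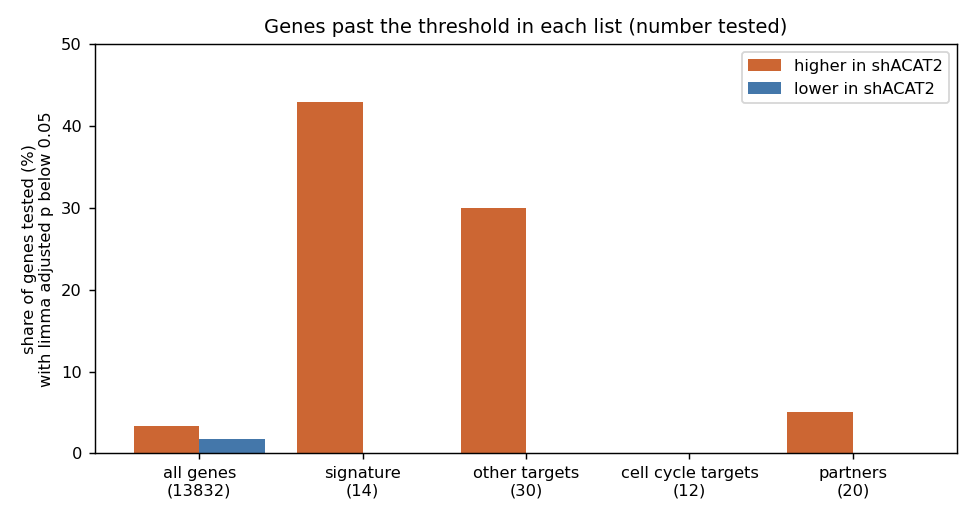
Share of the tested genes of each list, in percent, with a limma adjusted p below 0.05 and higher (orange) or lower (blue) FPKM in shACAT2 cells, beside all 13832 genes. The signature has 42.9% and the other targets 30.0% higher, against 3.30% of all genes, and the cell cycle targets have none in either direction. The lists were chosen with earlier results of these data known. MYOF, DAB2 and NDRG1 are counted through their shACAT2 means alone.

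Among 36 paralogs, receptors and pathway partners of the 9 genes, 20 were tested and 1 (5.0%) rose, near the 3.30% of all genes. It was NUAK1, the paralog of NUAK2, which averaged 2.61 ± 0.143 FPKM with shNC and 4.03 ± 0.419 FPKM with shACAT2 (SD, n = 3 each) and rose by 0.47 on the log2 scale (SE 0.10, limma adjusted p = 0.0447). Without shNC-3 the limma adjusted p of NUAK1 was 0.195. The list's median was 0.021, close to the 0.016 of all genes. The integrin subunit ITGB5, a receptor for CCN proteins, had 0.56 (limma adjusted p = 0.0777), and the adenosine-degrading enzyme ADA −0.48 (limma adjusted p = 0.0991). With the replicate block 3 were called higher, among them ITGB5, and 1 lower, ADA (limma adjusted p = 0.0325). Among all 13832 genes, 1727 were called there, 1061 of them (7.67% of all genes) higher and the rest lower. YAP1 averaged 22.9 ± 1.05 FPKM with shNC and 22.1 ± 2.26 FPKM with shACAT2 and WWTR1, which encodes TAZ, 4.48 ± 0.379 and 4.52 ± 0.226 FPKM (SD, n = 3 each). TEAD1 to TEAD4 had log2 fold changes of 0.53, −0.035, 0.23 and 0.29 and VGLL4, a repressor that binds TEAD, −0.45, with limma adjusted p of 0.253, 0.921, 0.436, 0.343 and 0.0515, and with the replicate block 0.0413 for TEAD1 and 0.0424 for VGLL4.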

How the data were processed

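RNA-seq of 6 HGC-27 libraries, 3 shNC and 3 shACAT2, was analysed as the authors deposited it, as FPKM for 58735 genes. The submitters' processing notes name hg38, HISAT2 2.0.5, featureCounts 1.5.0-p3 and DESeq2 1.20.0. All 58735 gene lengths equal the merged exons of GENCODE 29, and coordinates are on GRCh38. Each FPKM multiplied by its gene length was a whole multiple, within 0.1, of 1 step per library in 100% of the values of up to 1000 fragments, which gave back the fragments. limma 3.58.1 in R 4.3.3, with a trend, was fitted to log2(FPKM + 1) for the 13832 genes whose mean reached 1 FPKM in at least 1 group, with Benjamini-Hochberg adjustment over all of them and a threshold of 0.05. Python 3.11.15, numpy 2.4.6, pandas 2.3.3 and matplotlib 3.10.9 served for the rest. On simulated fragments for this comparison limma found 91.0% of 200 genes that had been shifted by 1.5 (log2) among 13659. It also called 23 unchanged genes, a larger share of its calls than the 0.05 aimed at. The simulated libraries were independent, with the same spread for every gene, no close pair and no difference by exon length. Most differences reported here are smaller than 1.5, and recovery at those sizes was not tested.

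The 9 genes and all lists were chosen with earlier results of these data known. Named were the 9 genes, the genes of each list past the threshold (at most 10) and the 2 others with the largest absolute log2 fold change, WISP2, WISP3, YAP1, WWTR1, TEAD1 to TEAD4, VGLL4, ACAT2 and the 3 nearest profiles, and 1 gene past the threshold is not reported here. Marker, antisense and other genes were named after their values were seen. Deviations from the group means correlated between libraries of the same number (r = 0.445, 0.126 and 0.171 over 13832 genes), so the numbers were taken to pair them. The labels state no pairing, and shNC-2 with shACAT2-3 (0.198) and shNC-3 with shACAT2-2 (0.141) correlated about as well. Only the pair numbered 1 stood out, so results with the replicate block rest on an uncertain pairing. The alternatives were testing all genes with a fragment, a minimum of 10 fragments per library, 0.1 FPKM added, upper-quartile and library-size scaling, the replicate block, limma-voom, shNC-2 and shNC-3 averaged, a fold rule and each library left out. Limma-voom without a filter was chosen after seeing the data.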

Additional observations from a re-analysis of the deposited data

How the results depend on the processing

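The log2 fold changes of CTGF, CYR61, NOV, ANKRD1 and CRIM1 stayed positive in every alternative in which they were tested, but that of ANKRD1 went from 0.78 to 1.94 with 0.1 FPKM added and 2.26 with limma-voom, and that of CTGF from 1.42 to 1.76 and 1.75. All 706 genes called became 209 with no filter, 1727 with the replicate block, 1165 with limma-voom, 1303 with limma-voom and no filter, 83 after averaging shNC-2 with shNC-3, 207 with the fold rule, and 63 to 862 with 1 library left out. These totals hold both directions. Of all genes, 7.67% were called higher with the replicate block, 4.22% with limma-voom and 3.5% with library-size scaling. The share was 1.61% of 41161 genes with limma-voom and no filter, and 0.353% to 3.76% with 1 library left out. The 4 of the 9 genes became 2 with no filter (CYR61 and NOV), where 0.362% of 41161 genes were called higher. They became 1 with the average (NOV, 0.455%) and 2 with the fold rule (0.983%). They became 1 to 4 with 1 left out, and were 4 with the replicate block. The 6 signature genes became 3, 1, 2 and 1 to 6 in the same order. The 9 other targets became 5 with no filter, 16 with the replicate block, 14 with limma-voom, 15 with limma-voom and no filter, 2 with the average, 4 with the fold rule and 2 to 10 with 1 left out. The 0 cell cycle targets became 1 with library-size scaling, with limma-voom and with limma-voom and no filter, 4 with the replicate block, and 0 to 1 with 1 left out. The 1 partner became 0 with no filter, the average and the fold rule, 2 with library-size scaling, 4 with the replicate block, 3 with limma-voom, and 0 to 3 with 1 left out. The cause was not tested, except that the average and the left-out libraries leave fewer samples and no filter tests more genes. Where 1 group keeps 2 libraries, the spread is pooled over both groups. Few fragments limit ANKRD1, NT5E, NUAK2 and WISP1.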
